A study of Mus musculus with 38 samples.

Results

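The 8 genes Cxcl9, Cxcl10, Igtp, Gbp2, Gbp3, Psmb8, Psmb9 and Tap1 were taken by name from the array annotation, with every probe assigned to them: 11 probes for 8 of the 9890 named genes tested. They belong to the program that interferon-gamma, a cytokine released mainly by activated T cells and natural killer cells, induces in its target cells. The cytokine signals through its receptor and the JAK kinases to promoter elements known as GAS, and a second wave of factors such as IRF1 acts on ISRE elements. Cxcl9 and Cxcl10 encode chemokines that attract T cells carrying the receptor CXCR3. Igtp, Gbp2 and Gbp3 encode interferon-inducible GTPases that act in defence against intracellular pathogens. Psmb8 and Psmb9 encode catalytic subunits of the immunoproteasome, and Tap1 encodes one chain of the transporter that carries peptides to MHC class I molecules. In melanoma, CD8 T cells recognise tumor peptides on MHC class I, and interferon-gamma is known to raise that presentation.

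Total RNA of mouse tissue (strain C57BL/6, labelled 8 weeks of age) was measured on 38 single-colour Illumina bead arrays in 7 groups. Arrays of tumor microenvironment came from B16-shTGFb at Day 4 (6 arrays) and Day 14 (5 arrays), from B16-shVEGF at Day 4 (5 arrays) and Day 14 (6 arrays), and from B16-WT at Day 4 (4 arrays) and Day 14 (5 arrays), with days counted from inoculation, and 7 arrays came from control tissue. B16 is a mouse melanoma line. The labels do not say how the sh lines were made, whether each was 1 clone, where the cells were placed or how much of a sample was tumor. Nor do they tell if 1 mouse or several gave the RNA within a group, so the p-values rest on array-to-array spread alone, part or all of which may be technical. Each level is the log2 of a background-corrected, quantile-normalized intensity, a difference of 1 is 1 doubling, and levels of different genes are not compared because probes differ in brightness.

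Neither transcript named by the sh lines separated them from WT in these mixed tissues: the fitted difference of Tgfb1 in shTGFb minus WT was 0.32 at day 4 and 0.51 at day 14, and that of Vegfa in shVEGF minus WT was -0.041 and -0.29 (limma, Benjamini-Hochberg adjusted p of 0.553 or more). Without 3 WT arrays described next, these differences were 0.37, 0.064, 0.032 and 0.23 in the same order. The labels do not say which TGF-beta gene was meant, and host cells carry these transcripts too. The melanocyte enzyme gene Dct was detected on all 38 arrays, from 6.50 to 14.49 on tumor arrays and from 8.22 to 14.53 on control arrays, so it did not set the tumor arrays apart. After the data were seen, 3 WT arrays were set apart from the rest: array 4 of day 4 and arrays 2 and 5 of day 14. On them the fibroblast proteoglycan gene Dcn was not detected (4.38, 4.67 and 4.87), against 12.35 to 14.45 on the other 35 arrays, and 12 of 14 measured T cell genes and 13 of 18 macrophage genes were undetected on all 3. Not all lists were low there. The mean of 10 cell cycle genes reached 11.22 and lay on all 3 above 10.94, its highest value on the other 35. That of 10 melanocyte genes was 11.68 to 12.08, against a median of 10.32 and a highest value of 12.48 on the other 35. That of 10 skeletal muscle genes was 5.06 to 5.15, against 7.69 to 13.55. The tissue make-up of the 3 arrays was not tested. Fewer cells of a type and less RNA per cell cannot be told apart in such bulk samples. Medians over the 8 genes in comparisons that involve WT arrays are given with and without these 3.

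Promoters are shown for the 5 members that hold the core letters of an ISRE or a GAS element. Each window runs from 250 bases before to 50 bases after the transcription start in RefSeq on build GRCm38.p6, and all 8 genes matched. The ISRE core was searched as GAAA, any 2 bases and GAAA, which on the other strand is TTTC, any 2 bases and TTTC, and the GAS core as TTCNNNGAA, which reads the same on both strands. Of 32851 windows of this length in the table, 3.44% held the ISRE letters and 8.3% the GAS letters. An ISRE match stood in 4 members, 213 bases upstream of the start in Cxcl10 at chr5:92348840-92349139 (minus strand), 34 bases upstream in Igtp at chr11:58199306-58199605 (plus strand), 59 bases upstream in Gbp2 at chr3:142620413-142620712 (plus strand), and 45 bases upstream, with a second match overlapping it, in the first of 2 Gbp3 windows at chr3:142559794-142560093 (plus strand). A GAS match stood 45 bases upstream in Igtp, next to its ISRE match, and 97 bases upstream in Psmb8 at chr17:34197945-34198244 (plus strand). Matches are in capitals in these 5 windows:
Cxcl10: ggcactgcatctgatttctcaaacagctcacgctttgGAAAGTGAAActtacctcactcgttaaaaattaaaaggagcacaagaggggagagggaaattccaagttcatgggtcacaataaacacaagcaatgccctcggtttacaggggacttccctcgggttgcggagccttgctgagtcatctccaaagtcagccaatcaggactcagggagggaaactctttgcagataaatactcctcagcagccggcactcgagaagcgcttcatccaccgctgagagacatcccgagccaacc
Igtp: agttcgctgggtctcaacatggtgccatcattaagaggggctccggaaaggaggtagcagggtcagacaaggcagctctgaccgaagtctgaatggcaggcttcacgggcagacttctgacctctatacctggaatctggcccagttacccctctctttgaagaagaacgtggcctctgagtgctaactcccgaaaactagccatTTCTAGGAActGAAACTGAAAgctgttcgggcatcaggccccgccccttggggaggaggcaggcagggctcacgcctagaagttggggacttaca
Gbp2: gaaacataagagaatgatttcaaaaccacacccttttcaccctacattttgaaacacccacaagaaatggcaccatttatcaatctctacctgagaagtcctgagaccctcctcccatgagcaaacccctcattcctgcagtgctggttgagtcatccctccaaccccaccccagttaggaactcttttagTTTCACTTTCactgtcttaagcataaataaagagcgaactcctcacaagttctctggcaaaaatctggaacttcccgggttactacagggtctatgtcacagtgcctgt
Gbp3: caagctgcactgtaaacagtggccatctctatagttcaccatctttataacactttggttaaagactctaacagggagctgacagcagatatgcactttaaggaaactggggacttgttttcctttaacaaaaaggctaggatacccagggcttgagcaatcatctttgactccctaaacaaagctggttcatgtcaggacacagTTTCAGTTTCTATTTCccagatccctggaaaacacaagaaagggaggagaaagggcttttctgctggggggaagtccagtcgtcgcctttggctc
Psmb8: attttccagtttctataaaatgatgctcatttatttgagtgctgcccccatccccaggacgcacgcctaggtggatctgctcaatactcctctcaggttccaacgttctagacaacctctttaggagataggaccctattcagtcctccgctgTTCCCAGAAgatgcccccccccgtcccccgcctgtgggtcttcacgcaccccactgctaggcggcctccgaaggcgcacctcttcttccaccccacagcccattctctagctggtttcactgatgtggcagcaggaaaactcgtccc

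These letters were in none of the windows of Cxcl9, Psmb9 and Tap1, which says only that they are not in those stretches. The start of Tap1 and the start of Psmb9 face away from each other, and their windows share 275 bases. Psmb9 lies at chr17:34182030-34187330, Tap1 at chr17:34187556-34197225 and Psmb8 at chr17:34198195-34201454, 3 neighbours in the MHC region. Cxcl9 at chr5:92321331-92328079 and Cxcl10 at chr5:92346638-92348889 also lie near each other, as do Gbp3 at chr3:142560016-142573213 and Gbp2 at chr3:142620663-142638008, while Igtp lies at chr11:58199556-58207592.

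The chemokine Cxcl9 had the widest range of the 8 genes over all 38 arrays (SD 2.08, above 98.1% of genes tested). On the shTGFb arrays Cxcl9 ran from 8.57 to 12.06 with a median of 10.74 at day 4 (6 arrays), and stood at 10.93, 8.81, 12.04, 9.75 and 10.53 at day 14. On the shVEGF arrays it stood at 8.58, 8.32, 11.92, 11.30 and 11.91 at day 4 and ran from 7.98 to 12.94 with a median of 9.39 at day 14 (6 arrays). On the WT arrays it stood at 11.97, 8.89, 8.39 and 4.54 at day 4 and 9.25, 5.18, 11.25, 7.75 and 4.47 at day 14, and on the 7 control arrays it ran from 8.32 to 12.05 with a median of 8.74 with 1 array, number 6, above all others of the group. The lowest WT values, 4.47, 4.54 and 5.18, were the 3 arrays without Dcn, where Cxcl9 was not detected. In every other group high and low arrays lay side by side, and each group overlapped control. Of 28 tumor arrays with Dcn detected, 3 stood above all 7 control arrays, and 16 stood above the other 6 controls, whose highest value was 9.59.

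Cxcl10 behaved differently on the arrays without Dcn. On the shTGFb arrays Cxcl10 ran from 7.53 to 11.03 with a median of 10.11 at day 4 (6 arrays), and stood at 9.66, 7.82, 11.32, 8.28 and 10.11 at day 14. On the shVEGF arrays it stood at 7.89, 8.18, 11.36, 10.29 and 10.78 at day 4 and ran from 7.20 to 12.35 with a median of 8.51 at day 14 (6 arrays). On the WT arrays it stood at 11.17, 7.98, 8.21 and 10.05 at day 4 and 8.46, 11.75, 10.79, 7.08 and 9.08 at day 14, and on the 7 control arrays it ran from 7.01 to 11.05 with a median of 7.78. The 3 arrays without Dcn read 10.05 at day 4 and 11.75 and 9.08 at day 14, all detected, and the second of these was the third highest Cxcl10 value of all 38 arrays. Cxcl10 was thus detected where Cxcl9 and most T cell and macrophage genes were not. Ccl5, a chemokine gene, and Bst2, an interferon-induced membrane protein gene, were also detected on all 3, at 6.85 to 9.62 and 8.40 to 10.16.

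**Figure D1:**
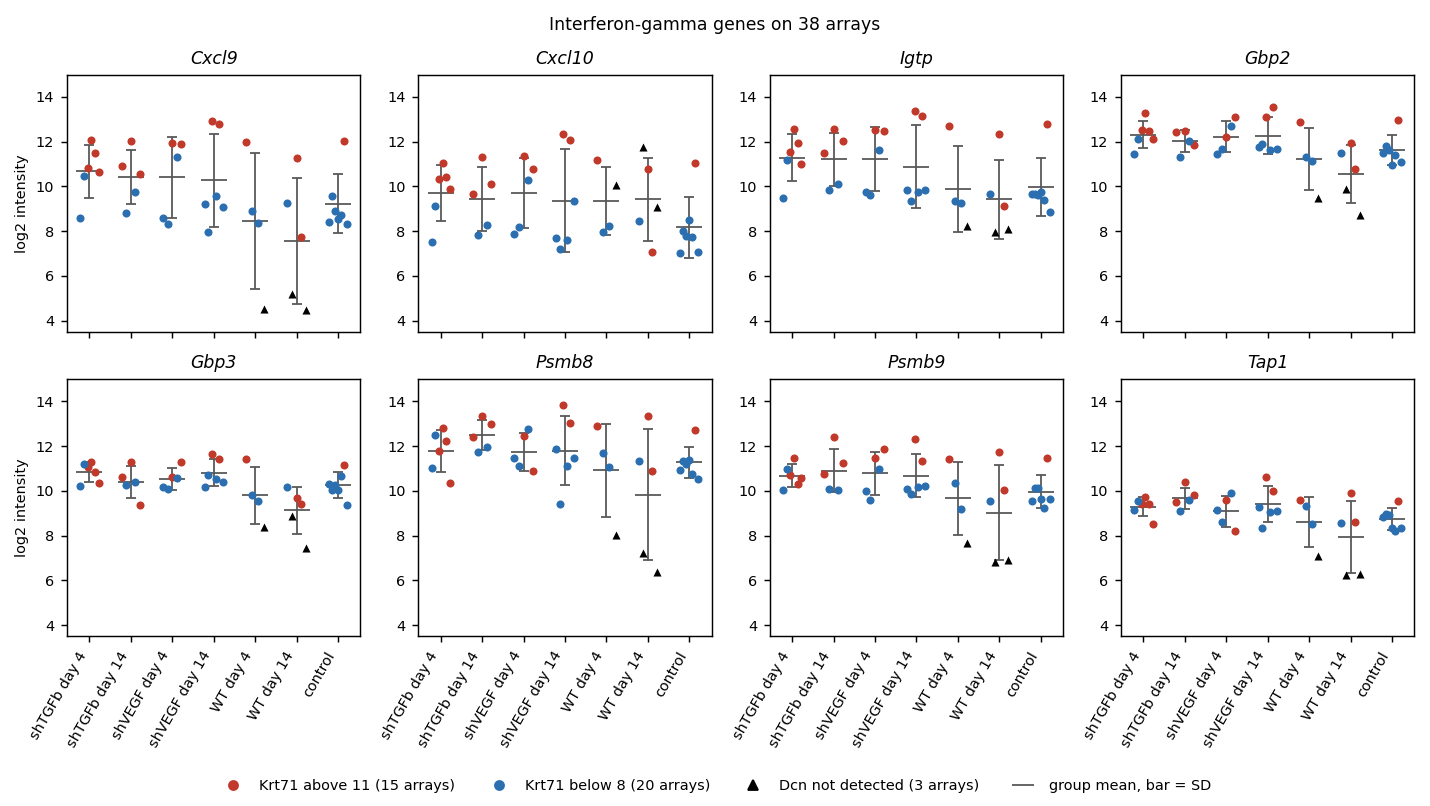
Log2 intensity of the 8 genes on each of 38 arrays by group, with group means and SDs as grey bars. Black triangles are the 3 WT arrays on which Dcn was not detected, red and blue points are arrays with high and low levels of the hair keratin Krt71. The triangles are the lowest WT values for 7 genes but not for Cxcl10, and in the panels of Cxcl9 and Igtp most red points lie above the blue ones of their group.

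Among the GTPases, Gbp3 showed the largest share of its variance between the 7 groups, 40.9% over 38 arrays and 26% over the 35 arrays with Dcn. Some variance falls between groups even when they do not differ, and Gbp3 did not pass the F test over the groups (limma, adjusted p = 0.637). On the shTGFb arrays Gbp3 ran from 10.22 to 11.30 with a median of 10.95 at day 4 (6 arrays), and stood at 10.64, 10.25, 11.31, 10.38 and 9.36 at day 14. On the shVEGF arrays it stood at 10.15, 10.08, 10.61, 10.58 and 11.30 at day 4 and ran from 10.18 to 11.63 with a median of 10.62 at day 14 (6 arrays). On the WT arrays it stood at 11.44, 9.83, 9.54 and 8.37 at day 4 and 10.18, 8.88, 9.69, 9.40 and 7.45 at day 14, and on the 7 control arrays it ran from 9.36 to 11.17 with a median of 10.26. The WT day 14 values lay at or below the control median, and every shVEGF day 14 value lay above 4 of the 5 WT day 14 values. Igtp averaged 11.21 ± 1.20 at shTGFb day 14, 10.89 ± 1.86 at shVEGF day 14, 9.43 ± 1.77 at WT day 14 and 9.97 ± 1.28 in control tissue (mean ± SD). Gbp2 averaged 12.02 ± 0.48, 12.27 ± 0.83, 10.56 ± 1.30 and 11.62 ± 0.66 in the same 4 groups. In both genes the WT day 14 mean was lowest of the 4 and its SD was the larger of its pair with control.

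The peptide transporter chain Tap1 followed the proteasome genes. On the shTGFb arrays Tap1 ran from 8.50 to 9.73 with a median of 9.39 at day 4 (6 arrays), and stood at 9.50, 9.09, 10.37, 9.57 and 9.83 at day 14. On the shVEGF arrays it stood at 9.15, 8.62, 9.57, 9.91 and 8.21 at day 4 and ran from 8.33 to 10.62 with a median of 9.20 at day 14 (6 arrays). On the WT arrays it stood at 9.58, 9.30, 8.52 and 7.09 at day 4 and 8.56, 6.23, 9.90, 8.61 and 6.29 at day 14, and on the 7 control arrays it ran from 8.19 to 9.55 with a median of 8.83. The 3 lowest values of all were again the arrays without Dcn. Of 28 tumor arrays with Dcn detected, 10 exceeded all 7 control arrays and none lay below all of them. Psmb8 averaged 12.48 ± 0.68 at shTGFb day 14, 11.79 ± 1.53 at shVEGF day 14, 9.82 ± 2.92 at WT day 14 and 11.27 ± 0.70 in control tissue. Psmb9 averaged 10.90 ± 0.96, 10.67 ± 0.96, 9.02 ± 2.11 and 9.96 ± 0.73 in these groups.

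The order of the 7 group means was alike for most of the genes. Cxcl9, Cxcl10, Igtp, Gbp2 and Gbp3 were highest at shTGFb day 4, and Psmb8, Psmb9 and Tap1 at shTGFb day 14. WT day 14 was lowest for 7 genes, and control was lowest for Cxcl10. Without the 3 arrays lacking Dcn, control was lowest for 6 genes and WT day 14 for Gbp2 and Gbp3. No 2 neighbours in any of these 38-array orders differed by more than the larger of their SDs. In a moderated F test over the 7 groups (limma) none of the 8 genes passed at an adjusted p under 0.05, nor did any of the 9890 genes (0%). At an unadjusted p under 0.05 there were 3 members, Gbp3 (0.00581), Gbp2 (0.0152) and Tap1 (0.0344), beside 6.41% of all genes. Their adjusted p was 0.637 in each case.

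Against control tissue, the 4 sh groups had all 8 genes at higher fitted levels, and none passed the test in any of them. The median difference over the 8 genes was 0.70 at shTGFb day 4, 1.07 at shTGFb day 14, 0.71 at shVEGF day 4 and 0.69 at shVEGF day 14, while the median over all genes lay between -0.051 and 0.028. No member reached an unadjusted p under 0.05 there (all genes, 2.99%, 1.26%, 1.08% and 0.222%, and 0% adjusted), and the 4 comparisons share the 7 control arrays. In the fit without the 3 WT arrays lacking Dcn the differences were the same and the residual spread was smaller, and Psmb8 and Tap1 at shTGFb day 14 and Tap1 at shVEGF day 14 reached it (all genes, 2.05% and 0.445%), with none passing after adjustment. The second probe of Gbp2, not used in these fits, went the other way at shVEGF day 4 (-0.13). The shTGFb day 4 comparison depended on how arrays were weighted. With limma's array weights 6 members passed as higher (Cxcl9, Cxcl10, Igtp, Gbp2, Gbp3 and Tap1, adjusted p from 0.0153 to 0.0446), when 7.84% of all genes passed. The weights were lowest for the 3 arrays without Dcn (0.16, 0.18 and 0.20), none of which is in shTGFb day 4 or control. Control array 6 had a weight of 0.55, against 1.23 to 3.68 on the other control arrays. In the same weighted fit Cxcl9, Igtp, Gbp2, Gbp3 and Psmb9, 5 members, passed as higher at shTGFb day 4 against WT day 4, where 8.58% of all genes passed. WT day 4 array 3 had the highest weight of the 38, 7.06, against 0.16 to 0.85 on the others of its group. The fit without weights called 0 in both comparisons.

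WT tumor tissue of day 14 had 7 of 8 genes below control in the fit of all arrays, and none passed. Gbp3 differed by -1.13 (95% interval -1.99 to -0.28) and Gbp2 by -1.06 (95% interval -2.06 to -0.057), the only members with an unadjusted p under 0.05, beside 16.8% of all genes lower at that threshold and 0% after adjustment (smallest adjusted p of the members 0.143). Cxcl9 differed by -1.64 (95% interval -3.87 to 0.59) and Cxcl10, in the other direction, by 1.26 (95% interval -0.63 to 3.15). Without the 3 arrays lacking Dcn, 2 of them in this group, Gbp3 and Gbp2 were still below control, at -0.50 and -0.21, and the other 6 differences were positive. Cxcl9 stood at 0.20, Psmb8 at 0.57 and Tap1 at 0.29, and the median of the 8 was 0.35 in place of -1.003. The sign of the median thus changed, and none of the 8 passed in that fit either. At WT day 4 the median was -0.33 with all arrays and 0.44 without the 3 arrays, with 0 members at an unadjusted p under 0.05 in the fit of all arrays (all genes, 1.97%).

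Against WT tumor tissue of the same day, the sh groups had higher levels of nearly all the genes, and the day 14 comparisons share the WT day 14 arrays with each other and with the comparison above. At shTGFb day 14 the median over the 8 genes was 1.77, all 8 were positive and 6 had an unadjusted p under 0.05, beside 7.66% of all genes higher at that threshold. None passed after adjustment (members' smallest adjusted p 0.326, 0% of all genes). Cxcl9 differed by 2.83 (95% interval 0.42 to 5.24), Psmb8 by 2.66 (95% interval 0.78 to 4.53) and Tap1 by 1.76 (95% interval 0.70 to 2.82), while Cxcl10 differed by 0.0073 (95% interval -2.04 to 2.05). At shVEGF day 14 the median was 1.67, with 6 genes at an unadjusted p under 0.05, beside 16.6% of all genes higher, and none passed after adjustment (members' smallest adjusted p 0.14, 0% of all genes). Gbp3 differed there by 1.69 (95% interval 0.81 to 2.58) and Cxcl10 by -0.062 (95% interval -2.02 to 1.89). Leaving out the 3 arrays without Dcn brought the medians to 0.65 and 0.56, with 0 and 1 members at an unadjusted p under 0.05 (all genes, 0.243% and 1.25%), and Gbp3 at shVEGF day 14 to 1.06 (95% interval 0.21 to 1.90). Conversely, without WT day 14 array 1 or array 4, which had Dcn, Gbp2, Gbp3 and Tap1 passed as higher at shVEGF day 14 (3 of 8, beside 12.5% and 16.5% of all genes), and without array 1 Gbp3 passed as lower at WT day 14 against control (-1.40, limma adjusted p = 0.0368, beside 14.6% of all genes). In those fits the arrays without Dcn made up 2 of the 4 remaining arrays of the group.

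Marker lists are set beside these values. The mean level of 14 T cell genes ran from 6.79 to 7.83 at shTGFb day 14, 6.70 to 7.97 at shVEGF day 14, 5.02 to 7.34 at WT day 14 and 6.60 to 7.79 in control tissue. The mean of 10 hair follicle genes ran from 6.12 to 11.65, 6.10 to 11.63, 5.26 to 12.45 and 5.83 to 11.35 in the same 4 groups. The T cell list was lowest on the WT arrays without Dcn, the hair follicle list spanned a wide range in every group, and the part of either in the differences was not tested.

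At day 4 the medians against WT were 1.02 for shTGFb, with 1 gene at an unadjusted p under 0.05 (all genes higher, 4.25%), and 0.91 for shVEGF, with 0 (all genes, 2.53%), and none passed after adjustment. These medians, in the fit without the 3 arrays, were 0.55 and 0.45, with 0 members at an unadjusted p under 0.05 (all genes, 1.64% and 0.708%). Between the days, the median was -0.17 within shTGFb, -0.036 within shVEGF and -0.66 within WT (-0.22 without the 3 arrays), with 0 members at an unadjusted p under 0.05 in any of the 3 (all genes, 4.86%, 0.617% and 0.637%). Tests of whether the difference from WT itself differed between the days found 0 members for either line (median 0.49 for shTGFb and 0.71 for shVEGF, with 1.39% and 1.02% of all genes at an unadjusted p under 0.05). When the 3 arrays were left out, these medians were 0.073 and 0.15, again with 0 members (all genes, 0.981% and 0.445%).

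**Figure D2:**
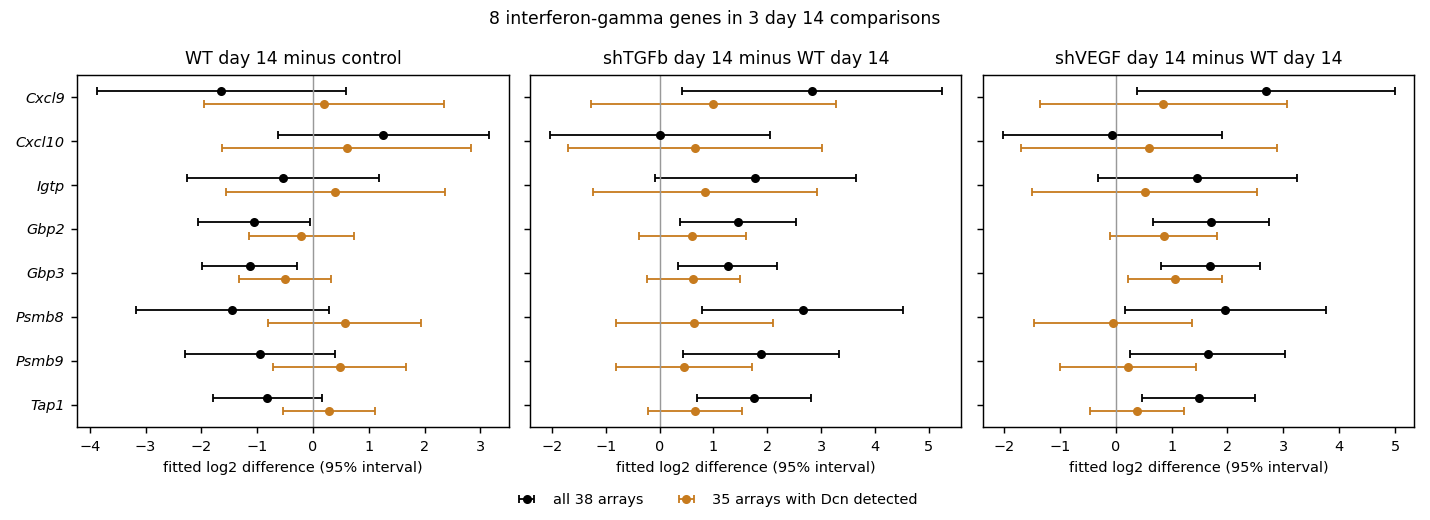
Fitted log2 differences of the 8 genes in 3 day 14 comparisons, with 95% intervals, from all 38 arrays (black) and from the 35 arrays with Dcn detected (orange). Without the 3 arrays the median difference is 0.35 for WT minus control, 0.65 for shTGFb minus WT and 0.56 for shVEGF minus WT.

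Levels of most of the 8 genes went with some hair follicle genes and not with others. Over the 35 arrays with Dcn the median r with the 8 was 0.65 for Krt71, 0.65 for Krt27 and 0.65 for Crym, 0.22 for Lef1 and 0.15 for Krt75, and -0.59 for Gata3, which was negative with all 8. Krt71, a keratin of the inner root sheath of growing hair follicles, split the 35 arrays with Dcn into 15 arrays at 11.65 to 14.74 (median 14.35) and 20 arrays at 4.34 to 7.92 (median 4.55), with none between. Krt27, another keratin of that sheath, split the same arrays, 13.03 to 14.50 (median 14.15) against 4.51 to 9.14 (median 4.90). The high side held 4 of 6 shTGFb day 4, 3 of 5 shTGFb day 14, 2 of 5 shVEGF day 4, 2 of 6 shVEGF day 14, 1 of 4 WT day 4, 2 of 5 WT day 14 and 1 of 7 control arrays, so every group had arrays on it. Cxcl9 ran from 7.75 to 12.94 (median 11.91) on the high side and from 7.98 to 11.30 (median 8.85) on the low side. Only 1 array of the high side, WT day 14 array 4, lay below 10.53, and only 2 of the low side, shTGFb day 4 array 2 and shVEGF day 4 array 4, lay above 9.75. Apart from these 3 arrays the sides did not overlap. Igtp ran from 9.13 to 13.39 (median 12.48) on the high side and 8.88 to 11.63 (median 9.65) on the low side, and Cxcl10 from 7.08 to 12.35 (median 10.79) and 7.01 to 10.29 (median 7.93). The overlap was wider for Psmb8, 10.33 to 13.82 (median 12.70) against 9.43 to 12.77 (median 11.33), and for Tap1, 8.21 to 10.62 (median 9.57) against 8.19 to 9.91 (median 9.01). The sides were drawn after seeing the data, and no test was made between them.

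Within the low side tumor and control arrays could be compared. On the low side the median of Cxcl9 was 8.99 over 14 tumor arrays and 8.65 over 6 control arrays, that of Igtp 9.75 and 9.64, and that of Tap1 9.13 and 8.59. All 8 medians were higher over tumor arrays and all 8 ranges overlapped. The tumor median of Tap1 lay above the highest of the 6 control arrays (9.13 against 8.96). Those of Psmb8 (11.45 against 11.38) and Igtp (9.749 against 9.744) lay barely above it. The 14 tumor arrays include the 2 low-side arrays with high Cxcl9 named above. For Tap1 the tumor and control medians were about as far apart as the medians of the 2 sides. The single control array on the high side, number 6, read 12.05 for Cxcl9 beside a tumor median of 11.70 over 14 arrays. The part of hair follicle content in the group values above was not tested. Other cell types moved with the sides as well: the median of 14 fibroblast and collagen genes was 10.48 on the high side and 11.39 on the low side, that of 10 skeletal muscle genes 10.74 and 12.46, and that of 10 melanocyte genes 11.17 and 9.99.

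The relation to the hair follicle list was also taken inside each side, where it cannot show whether that relation stops. The sides were cut on Krt71, a gene of this list, so the range of the list is narrowed inside them. On the low side Krt71 was detected on 6 of 20 arrays and Krt27 on 8. Gata3, which is also in the list, was negative with all 8 genes over the 35 arrays. The mean of the 10 measured hair follicle genes (of 35 listed) had a negative Pearson r with all 8 genes on the high side (15 arrays, -0.71 for Psmb9 to -0.042 for Gbp3) and on the low side (20 arrays, -0.51 for Gbp2 to -0.21 for Psmb8). By permutation, adjusted over 16 relations, Psmb9 on the high side passed (p = 0.00973, rho = -0.78 with adjusted p = 0.008, r = -0.75 without the 2 arrays farthest from the median of the list), and no other relation did on either side. Cxcl9 had r = -0.42 (permutation, adjusted p = 0.156) on the high side and -0.41 (adjusted p = 0.103) on the low side. Because the arrays form 2 separate clusters in this list, no r over all arrays is given for it here. Without WT day 14 array 4 on the high side r ran from -0.65 to 0.19 and was negative for 6 of 8 genes. Without the 2 exceptional arrays on the low side it ran from -0.29 to 0.19 and was negative for 4.

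T cell genes behaved otherwise. The mean of 14 measured T cell genes (of 24 listed) had a positive r with all 8 genes on both sides. This r ran from 0.48 for Tap1 to 0.79 for Gbp3 on the high side and from 0.51 for Cxcl10 to 0.81 for Psmb9 on the low side. On each side 5 of 8 passed (permutation, adjusted over 16 relations), and by rho 5 passed on the high side and 4 on the low side. Without WT day 14 array 4, r on the high side ran from 0.37 for Psmb8 to 0.74 for Gbp3. Single genes of the list differed: over the 35 arrays r with the 8 ran from 0.58 to 0.75 for Cd3d and from 0.54 to 0.62 for the kinase Zap70, but from -0.58 to -0.078 for Trat1 and from -0.46 to -0.027 for Thy1, which fibroblasts also express. Over these 35 arrays 6 of the 14 had r over 0.5 with the mean of the 8, beside 17.4% of all genes. On the high side Gbp3 had r = 0.79 and rho = 0.82 (permutation, adjusted p = 0.00368 and 0.0048), and r = 0.61 without the 2 arrays farthest from the median of the list. On the low side Cxcl9 had r = 0.73 and rho = 0.66 (permutation, adjusted p = 0.0098 and 0.0114), and r = 0.58 without the 2 farthest. The 2 low-side arrays with high Cxcl9 were also those with the highest level of the B cell receptor gene Cd79b, 12.67 in shTGFb day 4 array 2 and 8.31 in shVEGF day 4 array 4, against 6.56 at most on the other 18 of that side, and Cd3d, a T cell receptor component, stood at 10.92 and 9.54 against at most 7.96. Without them r on the low side ran from -0.021 for Gbp3 to 0.78 for Tap1 over 18 arrays. Gbp2, Gbp3 and Cxcl10, which had not passed on the low side, were at or near 0 without these arrays (0.14, -0.021 and 0.077), and Igtp, which had passed, stood at 0.39.

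**Figure D3:**
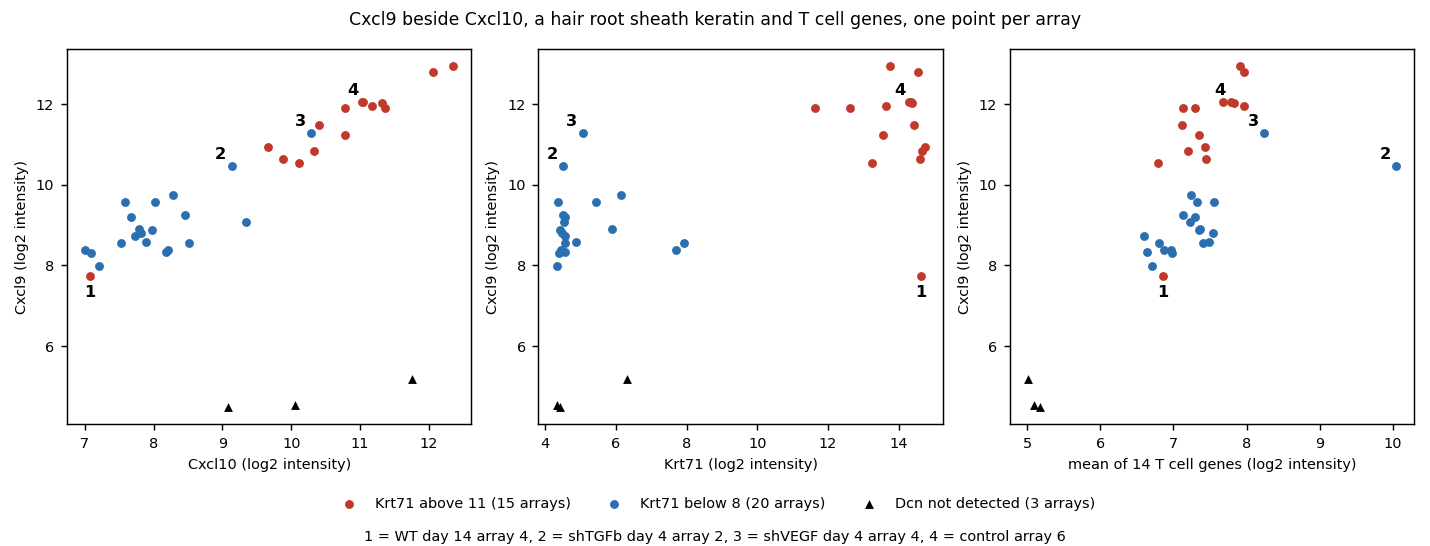
Cxcl9 against Cxcl10, against Krt71 and against the mean of 14 T cell genes, all in log2 intensity, 1 point per array. The 3 arrays without Dcn keep a detected Cxcl10 with no detected Cxcl9, Krt71 leaves an empty stretch between 7.92 and 11.65, and numbered points are the arrays named in the text.

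The 8 genes moved together from array to array inside each side. All 28 pairs had a positive r on both sides, with a median of 0.69 over the 15 high-side arrays (22 pairs passed) and 0.71 over the 20 low-side arrays (24 passed), by permutation with p-values adjusted over the 28 pairs. The closest pair on the high side was Cxcl9 and Cxcl10, r = 0.98 and rho = 0.90 (permutation, adjusted p = 7e-05 and 0.00014), and 0.94 without the 2 arrays farthest from the median of Cxcl9. On the low side the closest was Cxcl9 and Igtp, r = 0.88 and rho = 0.72 (permutation, adjusted p = 9.33e-05 and 0.00252), and 0.60 without the 2 farthest, which were the 2 arrays with high Cd79b.

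Some members were closer than others. Cxcl9, Cxcl10 and Igtp had r of 0.98, 0.97 and 0.97 with one another on the high side, and the MHC-region neighbours Psmb8 and Tap1 had 0.95 there and 0.81 on the low side. Gbp3 lay apart from those 2, with r of 0.28 to Psmb8 and 0.28 to Tap1 on the high side and 0.23 and 0.35 on the low side, none of which passed (permutation, adjusted p from 0.136 to 0.332). Gbp3 and Gbp2, which lie near each other on chromosome 3, had 0.89 and 0.65. Without the 2 high-Cd79b arrays the median r of the 28 pairs on the low side was 0.45, with 27 pairs positive and Cxcl9 with Cxcl10 at 0.38, and without WT day 14 array 4 the median on the high side was 0.59. In those 18 arrays of the low side Psmb8 with Tap1 (0.70) and Psmb9 with Tap1 (0.78) had the highest values. 

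**Figure D4:**
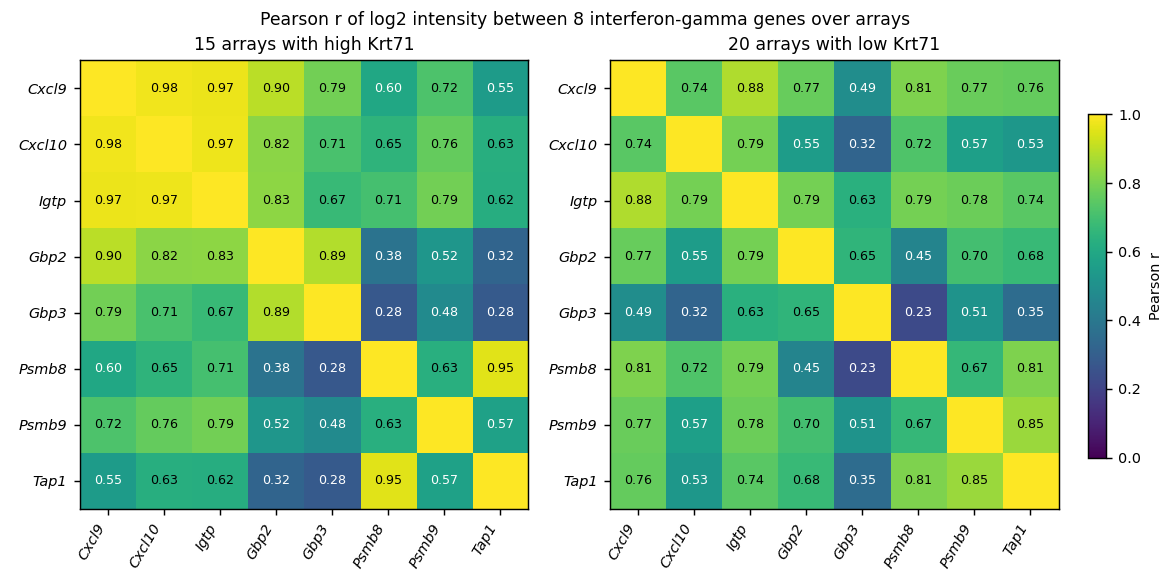
Pearson r of log2 intensity for the 28 pairs of genes, over the 15 arrays with high Krt71 (left) and the 20 arrays with low Krt71 (right), coloured from 0 to 1. The block of Cxcl9, Cxcl10 and Igtp is brightest on the left, Psmb8 with Tap1 is bright in both, and Gbp3 with Psmb8 is the lowest pair in both.

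A second probe was present for 3 genes. Over the 35 arrays with Dcn the 2 probes of Gbp3 had r = 0.90 and those of Psmb8 r = 0.89, so either gave a like picture. The 2 Gbp2 probes had r = 0.51, the dimmer one was detected on 36 of 38 arrays, and 13.1% of its variance lay between groups against 36.3% for the brighter one. Values of Gbp2 given here are those of the brighter probe.

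The genes whose levels were most like the mean of the 8 (mean of z-scored log2 levels, ranked by r over 38 arrays) were mostly other interferon-induced genes. First came Irgm2, an immunity-related GTPase, with r = 0.96 over the 15 high-side and 0.92 over the 20 low-side arrays. The others were Gm4951 (0.87 and 0.79), the GTPase Ifi47 (0.90 and 0.81), the RNA sensor regulator Dhx58 (0.87 and 0.78), the third inducible proteasome subunit Psmb10 (0.87 and 0.82) and the transcription factor Irf1 (0.85 and 0.89). The ranking ended with the leukocyte genes Lair1 (0.94 and 0.90), Nkg7 of cytotoxic lymphocytes (0.82 and 0.83), the chemokine Ccl4 (0.91 and 0.50) and Hk3, a hexokinase (0.89 and 0.72). These values describe the arrays and carry no test. By single member over 38 arrays, Irgm2 was among the 3 nearest genes of Cxcl9, Igtp, Gbp2 and Psmb9, the nearest to Gbp3 after Gbp2 was Parp14, and Psmb8 and Tap1 were nearest to each other, with Gm4951 next for both. Cxcl10 was nearest to Prph, Mitd1 and Mlkl over 38 arrays and to Igtp, Cxcl9 and Batf2 over the 35 arrays with Dcn.

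Fixed lists of related genes were set beside the 8, and no gene of them passed in any of the 15 comparisons. Among 7 other interferon-induced GTPases measured, the mean had r = 0.94 and 0.86 with the mean of the 8 on the high and low side, and Gbp10, Ifi47 and Irgm2 had r of 0.92, 0.93 and 0.97 with it over 35 arrays. Irgm1 (0.80) and Gbp7 (0.81) followed, and 6 of the 7 had r over 0.5, beside 17.4% of all genes. At shTGFb day 14 minus WT day 14 the median of these 7 GTPases was 1.31, with 7 of 7 positive and 2 at an unadjusted p under 0.05, and at shVEGF day 14 it was 1.32, with 7 positive and 3, beside 7.66% and 16.6% of all genes. Without the 3 arrays lacking Dcn these medians were 0.67 and 0.90, all still positive, with 0 and 1 at that threshold (all genes in either direction, 0.243% and 1.25%). The remaining inducible proteasome genes split. Psmb10 and Psme1, an activator subunit, had r of 0.92 and 0.87 over 35 arrays, and Psme2, the partner of Psme1, had 0.44. The mean of the constitutive subunits Psmb5, Psmb6 and Psmb7, which the inducible ones replace in the immunoproteasome, had r = 0.66 over the same 35 arrays, and 0.36 and -0.14 on the high and low side. At shTGFb day 14 minus WT day 14 its median difference was -0.23 with 1 of 3 positive, and at shVEGF day 14 it was -0.31 with 0 of 3 positive (-0.11 and -0.24 without the 3 arrays).

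Peptide loading and MHC class I genes were mixed. H2-M3, an MHC class Ib gene, had r = 0.81 with the mean of the 8 over 35 arrays, Tapbpl 0.72, the class I transactivator Nlrc5 0.62 and Tap2, the partner chain of Tap1, 0.60, whereas H2-K1 had -0.11, B2m -0.24 and the chaperone Pdia3 -0.61. At shTGFb and shVEGF day 14 minus WT day 14, 4 and 6 of 9 were higher at an unadjusted p under 0.05, beside 7.66% and 16.6% of all genes, with medians of 0.77 and 0.75. With the 3 arrays left out, 0 and 1 were higher at that threshold (all genes in either direction, 0.243% and 1.25%), with medians of 0.39 and 0.40. Of the signalling genes, Irf1 had r = 0.90, while the receptor chains Ifngr1 and Ifngr2 had -0.48 and 0.058, and the kinases Jak1 and Jak2 -0.37 and -0.27. Of further interferon-gamma induced genes, Ubd, a ubiquitin-like modifier, had 0.89, the checkpoint ligand gene Cd274 0.80, Ccl5 0.78 and Cxcr3 0.46, and Ido1, a tryptophan-degrading enzyme, 0.088. The median r of single genes with the mean of the 8 over all other genes tested was 0.011. The mean of 14 type I interferon response genes had r = 0.88 and 0.80 on the high and low side, and 8 and 9 of them were higher at an unadjusted p under 0.05 at shTGFb and shVEGF day 14 against WT, beside the same 7.66% and 16.6% of all genes. In the fit of 35 arrays 2 and 6 were higher at that threshold, with all 14 positive in both (all genes in either direction, 0.243% and 1.25%). Cytotoxic lymphocyte genes (7 measured) had 0.73 and 0.75. Macrophage genes (18 measured) had 0.069 and 0.75, and blood endothelium genes (9 measured) 0.15 and 0.83, with the higher value on the low side in both. Low-side values of all these lists include the 2 arrays with high Cd79b, and r without those arrays is not given.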

How the data were processed

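The deposited table gave bead intensity and a detection p-value per probe for 38 arrays, 45272 probes, without normalization, exported with BeadStudio per the submitters' processing notes; versions are not given in the sources used here. A second deposited table held log2 values of 16247 probes, which matched log2 quantile-normalized signals with no background correction. Intensities were background-corrected with limma 3.58.1 (normexp on detection p-values, offset 16), quantile-normalized and put on the log2 scale. Probes with 1 gene symbol (14836, of which 14830 matched RefSeq by Entrez identifier) that were detected (p under 0.05) on 4 or more arrays were kept, the probe with the highest mean stood for its gene, and 9890 genes were tested. An array had 16519 to 22897 probes detected and a median intensity of 105 to 155; the number of arrays limits the precision.

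A limma model with a mean per group gave 15 comparisons and an F test, with Benjamini-Hochberg adjustment over all genes and calls at 0.05. Correlations had 100000 permutations, and 1e-05 is the smallest p they can give. The 8 genes, the lists and the sides of Krt71 were chosen with earlier results of these data known. Named genes are the 8, the 10 nearest to their mean, the 3 nearest to each, and members of the fixed interferon and antigen presentation lists; Tgfb1 and Vegfa follow from the labels, and the markers and other genes named were chosen after their values were seen. Alternatives were no background correction, offset 50, median scaling, stricter or no filter, every probe, array weights, a replicate block, only the groups compared, and leaving out single arrays, the 3 arrays without Dcn and the 2 with high Cd79b. The scripts were tested on simulated data. Array numbers shared by groups did not pair the samples: every same-numbered pair correlated above 0.1 in 1 comparison, shVEGF day 14 minus day 4, and 4 of 38 arrays matched their own number best. No slide or scan batch was given in the sources used here. No 2 arrays held identical values.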

Additional observations from a re-analysis of the deposited data

Results flagged for a closer look

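In control tissue, array 6 lay far from the other 6 arrays for 6 of the 8 genes: Cxcl9 stood at 12.05 against 9.59 for the next highest control, Cxcl10 at 11.05 against 8.51, Igtp at 12.80 against 9.74, Gbp2 at 12.97 against 11.79, Psmb8 at 12.70 against 11.38 and Psmb9 at 11.45 against 10.12. These were the only outlying arrays by Dixon's ratio among 56 gene and group pairs, where chance marks about 1 in 20, and the genes are not independent of one another. Array 6 was also the only control array with high Krt71, at 14.35, against 7.92 at most on the other controls. Its Cd3d level was 8.97, against 6.56 to 7.58. Without this array the median differences from control were 0.94 at shTGFb day 4, 1.32 at shTGFb day 14, 0.95 at shVEGF day 4 and 0.91 at shVEGF day 14, and no member passed.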

How the results depend on the processing

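The count of members passing stayed at 0 in all 15 comparisons and in the F test with no background correction, offset 50, median scaling, the other filters, every probe and only the groups compared. A replicate block on the array numbers also left 0 members passing everywhere. Median scaling moved the median of all genes by up to 0.21. Array weights gave 6 members at shTGFb day 4 against control and 5 against WT day 4, a median of -0.65 for the shTGFb day difference, and Igtp at 0.34 for WT day 14 minus control. Leaving out 1 array gave 0 to 1 members at WT day 14 against control and 0 to 3 at shVEGF day 14 against WT, in fits that called 14.6%, and 12.5% or 16.5%, of all genes where members passed. It moved the median to -0.99 to 0.44 for WT day 4 minus control (the lowest without WT day 4 array 1 and the highest without WT day 4 array 4), -1.22 to -0.072 for WT day 14 minus day 4 (the lowest without WT day 4 array 4 and the highest without WT day 4 array 1), -0.26 to 1.31 for the shTGFb day difference (the lowest without WT day 4 array 1 and the highest without WT day 14 array 3) and 0.036 to 1.34 for the shVEGF one (the lowest without WT day 4 array 1 and the highest without WT day 4 array 4).

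Cxcl10 changed sign easily: at shTGFb day 14 minus WT it stood at -0.044 with no background correction, -0.015 with offset 50, -0.011 with median scaling, -0.58 with array weights and -0.58 to 0.59 without single arrays, and at shVEGF day 14 minus WT at 0.0012 with no background correction, 0.043 with median scaling, 0.60 without the 3 arrays and -0.66 to 0.52 without single arrays. Without the 3 arrays lacking Dcn, and equally without the 2 arrays with high Cd79b as well, both chosen after seeing the data, WT day 14 minus control had a median of 0.35, with Cxcl9 at 0.20, Igtp at 0.40, Psmb8 at 0.57, Psmb9 at 0.48 and Tap1 at 0.29, Gbp2 and Gbp3 still below 0, and Psmb8 stood at -0.049 for shVEGF day 14 minus WT.

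Correlations over all 38 arrays were planned and mix the 2 sides of Krt71 with the 3 arrays lacking Dcn. Over them, r with hair follicle genes was 0.47 to 0.74 and 15 of 16 relations to the lists passed by permutation, against 6 on the high and 5 on the low side. For Cxcl9, Cxcl10, Igtp, Gbp2, Gbp3, Psmb8, Psmb9 and Tap1 in that order, r with hair follicle genes was -0.42, -0.47, -0.55, -0.19, -0.042, -0.34, -0.71 and -0.19 on the high side and -0.41, -0.26, -0.40, -0.51, -0.44, -0.21, -0.38 and -0.26 on the low side. Among the 28 pairs, 26 passed over 38 arrays (Cxcl10 with Psmb8 and Tap1 did not) and 28 over 35, where Cxcl9 with Cxcl10 had 0.96 in place of 0.53. The cause of these changes was not tested. Detection limits Cxcl9 on the 3 arrays, where its level is only a bound.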

Other observations

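Ubd, a ubiquitin-like modifier gene, and Ido1 had wide ranges over the 35 arrays with Dcn, 4.71 to 9.63 and 4.49 to 11.57, and both were undetected on the 3 arrays without it. Interferon-response genes were not uniformly low on those 3 arrays: Rsad2, an antiviral enzyme gene, read 10.66 to 10.98 there against 8.58 to 12.60 on the others, and Isg15, a ubiquitin-like antiviral protein gene, 9.05 to 9.94 against 6.95 to 11.40, while Nlrc5, detected on 1 of the 3, read 4.60 to 6.06 against 9.35 to 11.37. The constitutive proteasome subunit gene Psmb7 read 13.03 to 13.28 on the 3 arrays and 12.01 to 13.11 on the others.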
